A study of Mus musculus with 26 samples.

Results

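The 10 wild-type (WT) mouse small intestinal libraries of the series, out of 26 samples in all, were compared between culture and tissue. They were chosen by label and column name alone: the 4 WT columns of the spheroid count table and the 6 WT columns of the crypt count table, joined on the Ensembl gene identifier. Spheroids are hollow balls of intestinal epithelium grown in Matrigel, a gel of basement membrane proteins. They were started from a segment of about 1 cm digested with 2 mg/ml collagenase I, kept in medium of which 50% was conditioned by L-WRN cells, passaged in cycles of 3 days, exposed to 250 nM Z-4-hydroxytamoxifen for 3 days and collected at day 3 after the drug. The crypts came from about 5 cm of small intestine loosened in 2 mM EDTA, of which fractions 4 to 6 were kept, at day 6 or 9 after tamoxifen given to the mouse. The series also holds Fgfr1op knockout (KO) spheroids and crypts, used below only where a WT value is set beside them, and Caco-2 cells, not used here. The design text gives 4 mice for each spheroid group and 3 mice for each genotype and day of crypts. The WT libraries of both kinds carry the same drug labels as the KO libraries. The promoter that drives the recombinase, the strain, the age of the mice and the segment of gut are not given in the sources used here. The names of the crypt columns do not tell day 6 from day 9, and both days form 1 group. Several things differ together between the groups and cannot be told apart. They include culture, the way the cells were obtained, the length of gut taken and the drug route. The day after the drug and the table that holds the counts differ too, and sex does in part.

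As background, the crypt is the pit of the small intestinal wall in which Lgr5+ stem cells divide beside Paneth cells, which supply Wnt and Notch signals and antimicrobial peptides. Daughter cells move up and become absorptive enterocytes, mucus-making goblet cells, hormone-making enteroendocrine cells or chemosensory tuft cells. L-WRN cells secrete a Wnt protein, R-spondin and Noggin, which keep cultured epithelium dividing and undifferentiated, and epithelium regrowing after injury or grown as spheroids is known to turn on genes of the fetal gut, many of them targets of the transcriptional coactivator YAP.

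The libraries held 44152608 to 67630241 counts in spheroids and 49536700 to 103352863 in crypts. Levels are given as CPM, counts brought to 1 common library total after scaling by edgeR's TMM factors, which were 1.21 to 1.23 in spheroids and 0.80 to 0.92 in crypts. CPM is not divided by gene length, so it compares libraries for 1 gene and not genes with each other. The 10 most abundant genes took 4.64 to 5.12% of the counts in spheroids and 10.6 to 14.3% in crypts. Mitochondrially encoded genes took 0.688 to 0.802% and 1.66 to 3.90%, ribosomal protein genes 7.79 to 8.26% and 4.19 to 5.56%. Of all counts, mitochondrial ribosomal RNAs took 0.045 to 0.062% in spheroids and 0.62 to 1.19% in crypts. Mitochondrial protein-coding genes took 0.64 to 0.74% and 1.03 to 2.71%. Both groups mixed the sexes, but unevenly. Xist, the RNA of the inactive X chromosome, was carried by 1 of 4 spheroid libraries and 5 of 6 crypt libraries. Sex therefore went in part with the group. The first principal component of the 10 libraries held 96.8% of the variance and separated culture from tissue. Among spheroids the library WT 1 stood apart on the first component of the spheroids alone, and among crypts WT 4 on the second component of the crypts alone. Crypt numbers such as WT 4 are the running number of the column and say nothing of the day.

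Of 40481 joined genes, 17379 had enough counts to be tested. At an adjusted p below 0.05 (edgeR's quasi-likelihood test with Benjamini-Hochberg adjustment), 14555 genes differed, 83.8% of those tested: 7185 were higher in spheroids (41.3%) and 7370 lower (42.4%). A change of more than 2-fold, tested with edgeR's glmTreat, was called for 10286 genes (59.2%), 5346 higher (30.8%) and 4940 lower (28.4%). In 13288 genes (76.5%) the ranges of the spheroid and crypt libraries did not overlap. The median log2 fold change, always spheroids over crypts, was -0.05 over all genes and the median absolute change among called genes 1.98. With so many genes called, a list in which most members passed the test is near the background. The lists below are described by direction and counts, and many also by their median. These are to be read against the shares and the median of all genes given here. The lists are described without a test.

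The difference moved with the base composition of the transcripts and, less strongly, with their length. For each gene the highest share of G and C in any window of 200 bases of its longest GENCODE transcript, called peak G+C below, was set against its log2 fold change. This was done after seeing the data, and Spearman's rho was 0.51 across 17372 genes, which share the same 10 libraries and are not independent. With the G+C share of the whole transcript rho was 0.253, and with transcript length 0.289. A longer transcript holds more windows, so peak G+C is not separate from length, and length was not corrected for. In the decile of genes with the lowest peak G+C (up to 53.5%) the median log2 fold change was -1.51, and 13.3% were higher and 66.9% lower in spheroids. In the decile with the highest (78% or more) the median was 2.12, with 81.5% higher and 10.2% lower. Libraries of the same kind differed little in this respect: relative to its group, each library's top decile stood -0.15 to 0.07 on the log2 scale from its bottom decile. The same trend was present between the KO spheroids and KO crypts (rho 0.513). The library kits are not given in the sources used here, so a difference in how the 2 sets were made and a difference in the cells cannot be told apart. The main groups of genes below are therefore also given after the trend on peak G+C was taken out of the test (the trend-corrected values), under which 73.4% of the WT calls with a value kept their direction and 1186 of 14549 turned around.

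**Figure D1:**
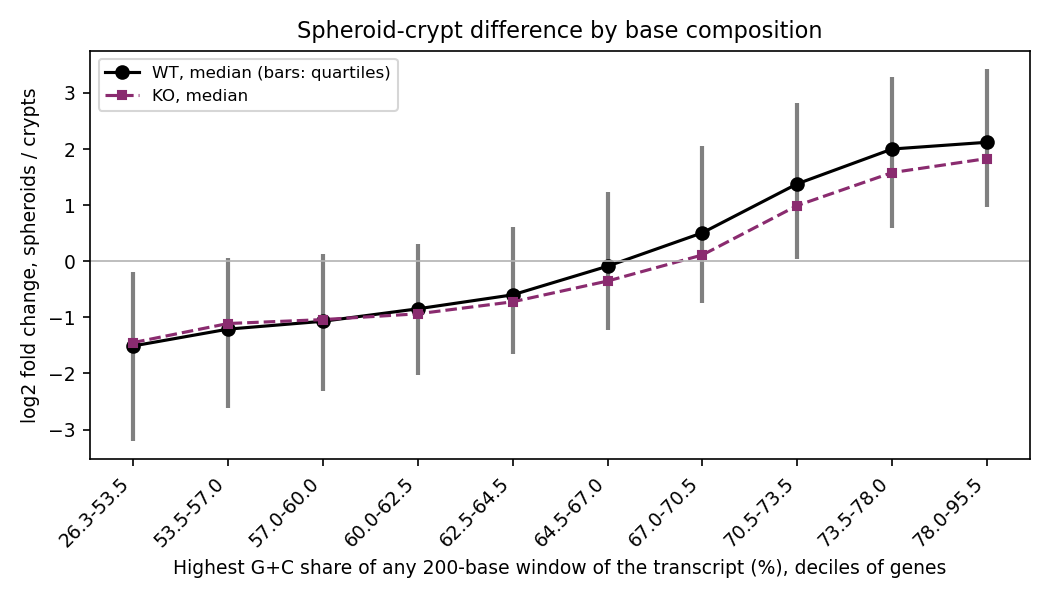
The horizontal axis gives deciles of the genes tested by the highest G+C share (%) of any 200-base window of the transcript, and the vertical axis the log2 fold change of spheroids over crypts. Black points are the WT medians with bars from the lower to the upper quartile, and squares the KO medians. The WT median rises from -1.51 in the lowest decile to 2.12 in the highest, and the KO medians run beside it.

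Paneth cell products were nearly gone from the spheroids. All 18 Paneth list members tested were lower in spheroids, with a median log2 fold change of -11.25, and all 18 were lower after the trend correction (median -10.1). Their summed level was 66 to 92.7 CPM in spheroids and 46217 to 115301 CPM in crypts. Lyz1, the lysozyme of Paneth granules, was at 6.72, 14, 9.24 and 3.84 CPM in the 4 spheroid libraries and from 7033 to 18049 CPM (median 12480) in the 6 crypt libraries. The ratio of the means was 1443-fold lower in spheroids (log2 fold change -10.49 ± 0.55 SE, adjusted p = 1.61e-09). Defa24, an alpha-defensin, was at 5.72, 11.3, 5.91 and 4.14 CPM against 18071 to 46364 CPM (median 26231), a log2 fold change of -12.04 ± 0.52. Neither gene's groups came near each other. Alpha-defensin genes are near-identical copies, and the sources used here do not say how the authors counted reads shared among them, so the split among single members is uncertain. The smallest difference among the Paneth list members was in Mmp7, the metalloproteinase that activates defensins, at 29.1, 36.3, 35.7 and 53.5 CPM against 129 to 312 CPM (median 191), 5.34-fold lower (adjusted p = 1.13e-06). Ang4, an antimicrobial ribonuclease, and Itln1, a lectin that binds microbial sugars, were 603-fold and 673-fold lower.

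Enterocyte genes were lower as well. All 35 enterocyte list members tested were lower in spheroids (median -6.21), and after the trend correction 33 were lower and 1 higher (median -5.63). Their summed level was 1327 to 2301 CPM in spheroids and 29882 to 70993 CPM in crypts. Apoa1, a lipoprotein component, was at 39.3, 5.61, 9.83 and 5.69 CPM in spheroids and 4381 to 10681 CPM (median 6812) in crypts, 485-fold lower on the means (-8.93 ± 0.75, adjusted p = 1.46e-07). The highest spheroid value came from library WT 1, which was also the highest for Anpep, the brush border aminopeptidase N, at 9.62 CPM against 2.91 to 3.46 in the other 3, and 2679 to 8143 CPM in crypts. Fabp2, the fatty acid binding protein of enterocytes, was at 20, 11.7, 13.8 and 9.11 CPM against 3897 to 13377 CPM (median 5086), and Slc6a19, the brush border transporter of neutral amino acids, was 4013-fold lower. Lct, which encodes lactase, was 744-fold lower. Not all brush border hydrolases followed. Mgam, the maltase-glucoamylase, was at 339, 259, 324 and 251 CPM against 288 to 520 CPM (median 405), with overlapping groups; its log2 fold change of -0.47 ± 0.16 (adjusted p = 0.0133) became 0.47 after the trend correction, and the call was lost without spheroid library 2 (-0.39) or 4 (-0.38). Alpi, an intestinal alkaline phosphatase, ranged from 4.27 to 51.8 CPM among spheroids and overlapped the crypts at 26.8 to 78.9 CPM. Its difference (-1.54 ± 0.61, adjusted p = 0.033) did not pass the test without spheroid library 2, 3 or 4 or crypt library 5, where it was -1.18 to -1.53.

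Secretory cell genes were lower as well, with some early regulators still measured in culture. Of 18 goblet cell genes tested, 15 were lower and 2 higher (median -5.04), and after the trend correction all 18 were lower. Muc2, the gel-forming mucin, was at 5.59, 4.03, 15.4 and 6.67 CPM against 251 to 412 CPM (median 369), 43.8-fold lower (-5.45 ± 0.39, adjusted p = 3.32e-08). Atoh1, the factor that commits cells to the secretory lineage, was at 4.63, 4.07, 3.99 and 3.07 CPM in spheroids and 2.57 to 6.9 CPM (median 5.5) in crypts, so the groups overlapped, and it did not pass the test (-0.36 ± 0.25, adjusted p = 0.192). It was called lower without crypt library 5 (-0.50) and after the trend correction (-1.49). Creb3l1, a transcription factor of secretory cells, went the other way at 15.4 to 19.6 CPM against 8.04 to 10.8, but its peak G+C is 81.5% and its log2 fold change of 0.86 became -1.27 after the correction.

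Among enteroendocrine genes 19 of 23 tested were lower and none higher (median -5.41; 22 lower after the correction). Chga, a protein of hormone granules, was at 0.882, 1.25, 0.505 and 0.558 CPM against 13.9 to 66 CPM (median 35.1), and the hormone gene Sst was 1054-fold lower. The 4 that did not pass were Neurog3, Cck, Insm1 and Fev. Neurog3, the factor that starts the endocrine program, was at 1.18, 0.343, 0.949 and 0.634 CPM against 0.44 to 3.11 (median 1.6), with overlapping groups (adjusted p = 0.0605). It was called lower without spheroid library 1 (-1.32) or without crypt library 1, 4 or 5 (-1.18 to -1.28). Of 18 tuft cell genes tested, 15 were lower and 1 higher (median -3.70; the same counts after the correction, median -3.92), among them Dclk1, a kinase that marks tuft cells, at 0.15, 0.507, 0.625 and 0.57 CPM against 4.09 to 8.95 (median 6.39). Rgs13, a regulator of G protein signalling, had counts in 1 spheroid library alone (0.0298 CPM) and 8.18 to 21.1 CPM in crypts. Plcg2 was the 1 tuft list member called higher (0.43 ± 0.14, adjusted p = 0.0108), and its value after the trend correction was -0.70.

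In bulk RNA, fewer cells of a type and less of the RNA in each cell cannot be told apart; that holds for every cell type described here.

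Genes of the fetal-like state were the opposite pole. Of 29 fetal-like and YAP target genes tested, 28 were higher in spheroids, none lower, with a median log2 fold change of 6.24 that the trend correction left at 6.3 with the same counts. Ly6a, which encodes the surface protein Sca-1, was at 461, 714, 563 and 749 CPM in spheroids and 2.02 to 5.15 CPM (median 3.19) in crypts, 187-fold higher (7.54 ± 0.30, adjusted p = 1.03e-10). Anxa1, a phospholipid-binding protein of regenerating epithelium, was at 185, 277, 219 and 253 CPM against 0.481 to 6.94 CPM (median 1.08), 107-fold higher (adjusted p = 7.97e-07). Clu, the secreted chaperone clusterin, was at 812, 1200, 1099 and 1173 CPM against 2.2 to 11.8 CPM (median 3.05). In all 3 genes the lowest spheroid library lay far above the highest crypt library. Msln, mesothelin, was 192-fold higher. Among direct YAP targets, Ccn2 (also called CTGF), a secreted matrix-associated protein, was at 128, 228, 177 and 227 CPM and had no count in any of the 6 crypt libraries, at least 23514-fold higher against a floor of 3 counts over the group (0.00808 CPM). Ankrd1, a nuclear ankyrin repeat protein, was at 11.2, 23.9, 19 and 23 CPM against 0 to 0.0419 CPM. Keratins split: Krt7, a keratin of simple ducts, was 24.1-fold higher (21.1 to 126 CPM in crypts, 1554 to 1880 in spheroids), while Krt19, which crypt cells also express, was at 3633 to 4009 CPM against 3222 to 7391 CPM with overlapping groups and did not pass the test (-0.25 ± 0.20, adjusted p = 0.259). Krt19 alone held most of the list's summed level in crypts (3350 to 7610 CPM).

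TEAD factors, the DNA-binding partners of YAP, recognise the letters GGAATG. These were searched on both strands in RefSeq promoters (GRCm38.p6, from 250 bases before to 50 after each gene's start). At least 1 match lay in 11 of 26 promoters of the 21 fetal-like genes that have an entry (42.3%), and in 14.7% of all 32851 promoters. The promoters of Ankrd1 and Anxa1 are shown because these are a standard YAP target and a defining fetal-like gene of the list; capitals mark the matches, in either orientation. A match is a description of the letters and no evidence of binding. Ankrd1 lies on the minus strand with its window at chr19:36119795-36120094, and Anxa1 on the minus strand at chr19:20390622-20390921.
Ankrd1: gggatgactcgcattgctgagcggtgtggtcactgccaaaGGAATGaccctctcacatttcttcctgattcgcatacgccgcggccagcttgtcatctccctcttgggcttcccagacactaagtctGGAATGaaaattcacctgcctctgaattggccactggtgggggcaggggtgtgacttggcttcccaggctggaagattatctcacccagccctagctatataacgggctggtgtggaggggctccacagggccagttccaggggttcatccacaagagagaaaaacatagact
Anxa1: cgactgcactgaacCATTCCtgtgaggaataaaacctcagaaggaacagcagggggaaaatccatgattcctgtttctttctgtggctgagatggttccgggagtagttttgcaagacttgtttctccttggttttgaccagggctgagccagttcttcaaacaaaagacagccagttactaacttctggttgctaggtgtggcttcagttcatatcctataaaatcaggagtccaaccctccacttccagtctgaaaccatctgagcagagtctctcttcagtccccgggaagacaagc
The Ankrd1 promoter holds matches at -210 and -123 from the start, and the Anxa1 promoter 1 at -236.

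Stem cell genes did not move as 1 block. Of 21 tested, 12 were higher, 6 lower and 3 did not pass, with a median of 1.37, and after the trend correction 9 were higher and 8 lower with a median of -0.01; the list's median peak G+C was 73% against 64.5% over all genes. Lgr5, the R-spondin receptor that defines crypt base stem cells, was at 16.5, 24.3, 11.5 and 16.1 CPM in spheroids and 6.85 to 34.5 CPM (median 18) in crypts. The spheroid values lay inside the crypt range, and the difference was -0.08 ± 0.38 (adjusted p = 0.855). Olfm4, a secreted protein made by the same stem cells in mouse, was at 1.16, 1.19, 2.54 and 0.684 CPM against 915 to 2221 CPM (median 1484), 1094-fold lower (-10.08 ± 0.53, adjusted p = 1.59e-09). Ascl2, a Wnt-induced transcription factor of these cells, was at 58, 65.5, 65.3 and 64.1 CPM against 0.977 to 3.57 CPM (median 2.65), 26.6-fold higher. So Lgr5, Olfm4 and Ascl2, which mark the same cell in tissue, stood apart in direction by these tests. Hopx, a marker of slower-cycling crypt cells, was 21.4-fold higher (49.5 to 53.6 CPM against 1.78 to 2.9), and Sox9, a factor of the crypt base, 3.69-fold higher at 102 to 140 CPM against 23.2 to 45.3. The Sox9 difference of 1.88 became -0.01 after the trend correction (peak G+C 76%), the Hopx difference 4.32 from 4.41.

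Of 14 Wnt target and feedback genes tested 7 were higher and 4 lower (median 1.16; 7 and 6 after the correction, median 0.61). Axin2, which feeds back on the pathway, was at 101, 106, 106 and 93.9 CPM against 12.9 to 20 CPM (median 14.4), 6.54-fold higher (2.71 ± 0.14, adjusted p = 6.32e-10; 2.50 after the correction). Sp5, a Wnt-induced factor, was 37.2-fold and Ccnd1, cyclin D1, 29.3-fold higher. The 4 lower genes of this list were Wif1 (-6.09), Dkk3 (-3.81), Znrf3 (-1.02) and Bambi (-0.875), and all 4 were also lower after the correction. Of the niche ligands and antagonists, 10 of 17 tested were higher and 6 lower (median 2.12, and 0.09 after the correction with 8 and 7). Wnt3, the Wnt that Paneth cells make, was at 0.788, 0.447, 0.493 and 0.291 CPM against 6.82 to 18.1 CPM (median 13.3), 24.8-fold lower (adjusted p = 1.03e-07). Ligands of the epidermal growth factor receptor in this list split. Egf itself was lower (-1.77, and -1.22 after the correction), while Areg, Ereg, Tgfa and Hbegf were higher. Areg, amphiregulin, was at 195, 248, 239 and 250 CPM against 0.201 to 3.32 CPM (median 1.26), and Ereg, epiregulin, at 24.7 to 26.5 CPM against 0.963 to 3.18. Among Notch pathway genes 9 of 11 tested were higher and 1, Heyl, lower (median 2.55; 7 and 2 after the correction, median 0.73). Hes1, the main Notch target that blocks the secretory fate, was at 72.9, 74.9, 84 and 84.3 CPM against 10.2 to 16 CPM (2.55 ± 0.13, but 0.53 after the correction), and Jag2, a Notch ligand, at 129 to 162 CPM against 0 to 0.422. Other Notch ligands, counted in the niche list, split. Jag1 was higher (2.69, and 0.592 after the correction) and Dll4 lower (-1.49, and -2.38 after it). Dll1 did not pass (-0.682) but was called lower after the correction (-1.1). BMP targets, which Noggin holds down, did not fall as a group: 6 of 8 tested were higher and 2 lower (3 and 2 after the correction). Id1 was 2.73-fold higher and Id3, from the same family of helix-loop-helix inhibitors, 3.11-fold lower at 62.3, 58.5, 47.1 and 49.9 CPM against 104 to 247 CPM (median 161).

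**Figure D2:**
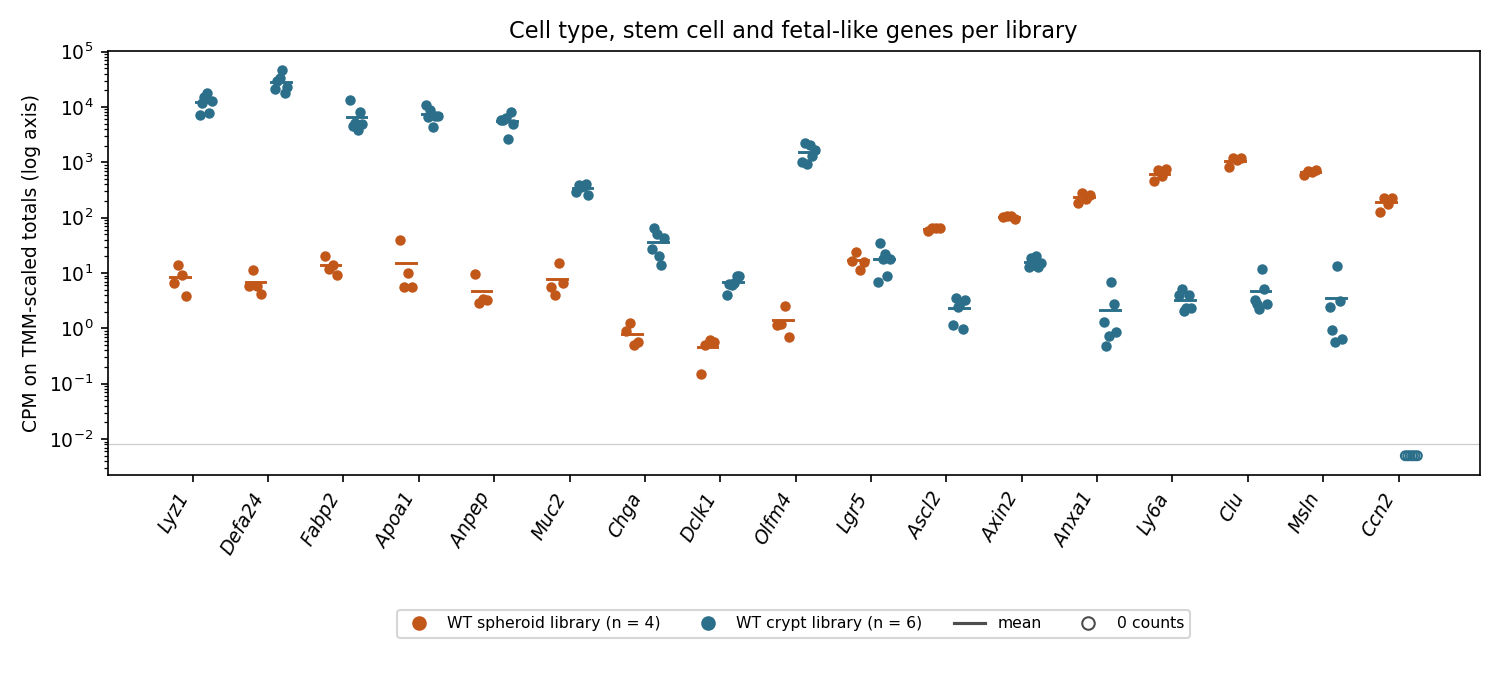
CPM on TMM-scaled totals (log axis) of cell type, stem cell and fetal-like genes, 1 point per library, spheroids left and crypts right in each pair; bars are group means and open circles libraries with 0 counts. Lyz1, Defa24, Fabp2, Apoa1 and Anpep stand apart with crypts higher, Lgr5 overlaps, and Anxa1, Ly6a, Clu, Msln and Ccn2 stand apart in the other direction.

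Genes of MHC class II antigen presentation were mostly at a few CPM or less in culture. MHC class II proteins show peptides to CD4+ T cells, and intestinal epithelium makes them under control of the coactivator CIITA, which interferon gamma and the microbiota induce. Of 11 class II list members tested, 9 were lower in spheroids and 1 higher (median -6.71; 9 and 2 after the trend correction). H2-Aa, an alpha chain, was at 0.075, 0.0298, 0.024 and 0.0507 CPM against 252 to 714 CPM (median 476), 10633-fold lower (-13.38 ± 0.61, adjusted p = 4.24e-10). Cd74, the invariant chain, was at 4.99, 4.43, 5.32 and 7.31 CPM against 1765 to 5453 CPM (median 3617), 654-fold lower. Ciita itself was at 0.0375, 0.0895, 0.024 and 0.0127 CPM against 8.94 to 31.7 CPM (median 11.5), 370-fold lower. In each the groups were far apart. The member that went the other way, Rfx5, is a subunit of the DNA-binding complex on which CIITA acts, at 12.7, 15.6, 14.9 and 15 CPM against 0.765 to 0.99 CPM, 16.4-fold higher (4.03 ± 0.15; 2.36 after the correction). H2-Ab1 and H2-Eb1, beta chains, were 174-fold and 70.9-fold lower, and kept 0.829 to 2.82 and 2.69 to 4.6 CPM in spheroids.

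Class II promoters carry a Y box, ATTGG, to which the factor NF-Y binds. It lay, on either strand, in 6 of 9 promoters of the 8 list members with an entry (66.7%) and in 37.4% of all promoters. H2-Aa (minus strand, chr17:34287774-34288073) and H2-Eb1 (plus strand, chr17:34305617-34305916) are shown as an alpha and a beta chain that fell, with the matches in capitals.
H2-Aa: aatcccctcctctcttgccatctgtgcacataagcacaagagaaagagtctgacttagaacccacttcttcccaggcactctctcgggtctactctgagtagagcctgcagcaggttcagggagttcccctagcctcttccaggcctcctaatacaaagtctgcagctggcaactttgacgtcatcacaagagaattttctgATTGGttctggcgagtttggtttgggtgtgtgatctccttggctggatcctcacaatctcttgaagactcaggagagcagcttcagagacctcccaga
H2-Eb1: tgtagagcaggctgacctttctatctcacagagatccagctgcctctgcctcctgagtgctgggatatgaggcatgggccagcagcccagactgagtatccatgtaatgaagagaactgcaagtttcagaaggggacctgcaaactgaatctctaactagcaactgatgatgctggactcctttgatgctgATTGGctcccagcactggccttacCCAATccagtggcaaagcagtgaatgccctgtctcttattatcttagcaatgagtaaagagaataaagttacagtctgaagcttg
The match of H2-Aa starts at -48 from the gene's start, and those of H2-Eb1 at -59 and -35, the second on the opposite strand.

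Class I presentation and the interferon response were also lower. Of 17 class I list members 13 were lower and 1 higher (median -2.89; 16 and 0 after the correction, median -2.50). B2m, the light chain of all class I molecules, was at 149, 147, 124 and 141 CPM against 1087 to 2278 CPM (median 1422), 11.6-fold lower (-3.54 ± 0.24, adjusted p = 9.35e-09), and Psmb8, a subunit of the immunoproteasome, was 51.1-fold lower. H2-D1, a heavy chain, was at 234 to 277 CPM in spheroids, inside the crypt range of 83.5 to 696 CPM. It did not pass the test (-0.06 ± 0.47, adjusted p = 0.912), but was called lower after the correction (-1.49). Of 36 interferon response genes tested, 30 were lower, 2 higher and 4 did not pass (median -2.98; 29 and 3 after the correction, median -1.95). Igtp, a GTPase that interferon gamma induces, was at 1.07, 0.999, 0.637 and 1.01 CPM against 15.9 to 61.3 CPM (median 35), and Iigp1, of the same family, had no count in spheroids and 0.605 to 8.07 CPM in crypts, at least 224-fold lower. Irf7, a regulator of type I interferon genes, was 5.03-fold lower. The 2 that were higher were Bst2, an antiviral membrane tether, at 27.9 to 31.8 CPM against 6.39 to 11.3, and Cd274, which encodes PD-L1. The interferon-stimulated response element was found, on either strand, in 16 of 30 promoters of the 26 members with an entry (53.3%) and in 3.44% of all promoters.

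Of 27 antimicrobial and mucosal defence genes tested 19 were lower and 5 higher (median -3.66; 20 and 6 after the correction, median -2.79). Reg3b, a C-type lectin that microbes induce in epithelium, was at 0.882, 0.358, 1.29 and 1.24 CPM against 2451 to 33171 CPM (median 10781), 14992-fold lower (-13.86 ± 0.97, adjusted p = 2.49e-08). Its neighbour Reg3g was 2684-fold lower. Pigr, which carries IgA across the epithelium, was at 256, 191, 202 and 146 CPM against 4203 to 7673 CPM (median 5316), 27.8-fold lower, and Nos2, the inducible nitric oxide synthase, 9.08-fold lower. Tlr4, the receptor for bacterial lipopolysaccharide, was among the 5 higher, at 7.77, 8.37, 6.78 and 7.24 CPM against 0.0289 to 0.513 CPM (5.52 ± 0.46). Epithelial cytokines and chemokines were split, 8 of 18 higher and 9 lower (7 and 7 after the correction).

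Lymphocyte and plasma cell markers were measured in every crypt library and lay at or near 0 in spheroids. Of 23 genes of intraepithelial T and related lymphocytes tested 22 were lower in spheroids, and their summed level was 4.3 to 8 CPM in spheroids and 134 to 227 CPM in crypts (median log2 fold change -8.44; 22 lower and 1 higher after the correction, median -7.83). Gzma, a granule protease of these cells, was at 24.5 to 50.1 CPM in crypts (median 37.6) and Cd3e, a T cell receptor subunit, at 5.01 to 11.9 CPM (median 8.98). Neither had a count in any spheroid library, which makes them at least 3525-fold and 802-fold lower. Igha, the heavy chain of IgA, marked plasma cells at 25 to 99.5 CPM in crypts, again with 0 counts in spheroids, and all 11 B and plasma cell genes tested were lower (summed level 0.697 to 1.13 CPM against 52.7 to 281 CPM; all 11 also after the correction). These lymphocyte and plasma cell levels were lower in spheroids, as were most of the antigen presentation, interferon and defence genes above. The part of lymphocytes and plasma cells in those results was not tested. Of 16 macrophage, dendritic and mast cell genes tested 13 were lower and 3 higher (median -5.09; the same counts after the correction, median -4.22), with a summed level of 45.6 to 56.5 CPM in spheroids and 295 to 552 CPM in crypts. The 3 higher were Csf1r, Cd14 and Mrc1. Adgre1 and C1qa, which mark macrophages, were at 0.46 CPM or less in every WT library, though Adgre1 was called lower in spheroids. Lyz2, a lysozyme of macrophages, was at 191 to 472 CPM in crypts, but it is a close copy of Lyz1 and reads may have been shared. Fibroblast genes were low in both: Dcn, decorin, was at 1.52 to 34.3 CPM in crypts and 0.0481 CPM or less in spheroids, and Col1a1, a chain of type I collagen, was at 0.413 to 0.529 CPM in spheroids and 0.0733 to 0.702 CPM in crypts, with no difference past the test (adjusted p = 0.478). Of the 13 fibroblast and matrix genes tested 8 were lower and 2 higher (9 and 1 after the correction). Without crypt library 1, 4 or 5 only 5 were counted as lower, where a member that was no longer tested counts as not lower. One of the higher ones was Fn1, fibronectin, at 76.3, 128, 85.8 and 136 CPM against 0.0489 to 0.241 CPM (9.48 ± 0.27), a protein that epithelial cells can also make. Of the other lists for cells a preparation could hold, smooth muscle had 1 of 5 genes lower, enteric neurons and glia 2 of 3, erythroid cells 5 of 5 and pancreatic acinar cells 3 of 3, with none higher; endothelial genes had 3 of 9 higher and 3 lower.

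**Figure D3:**
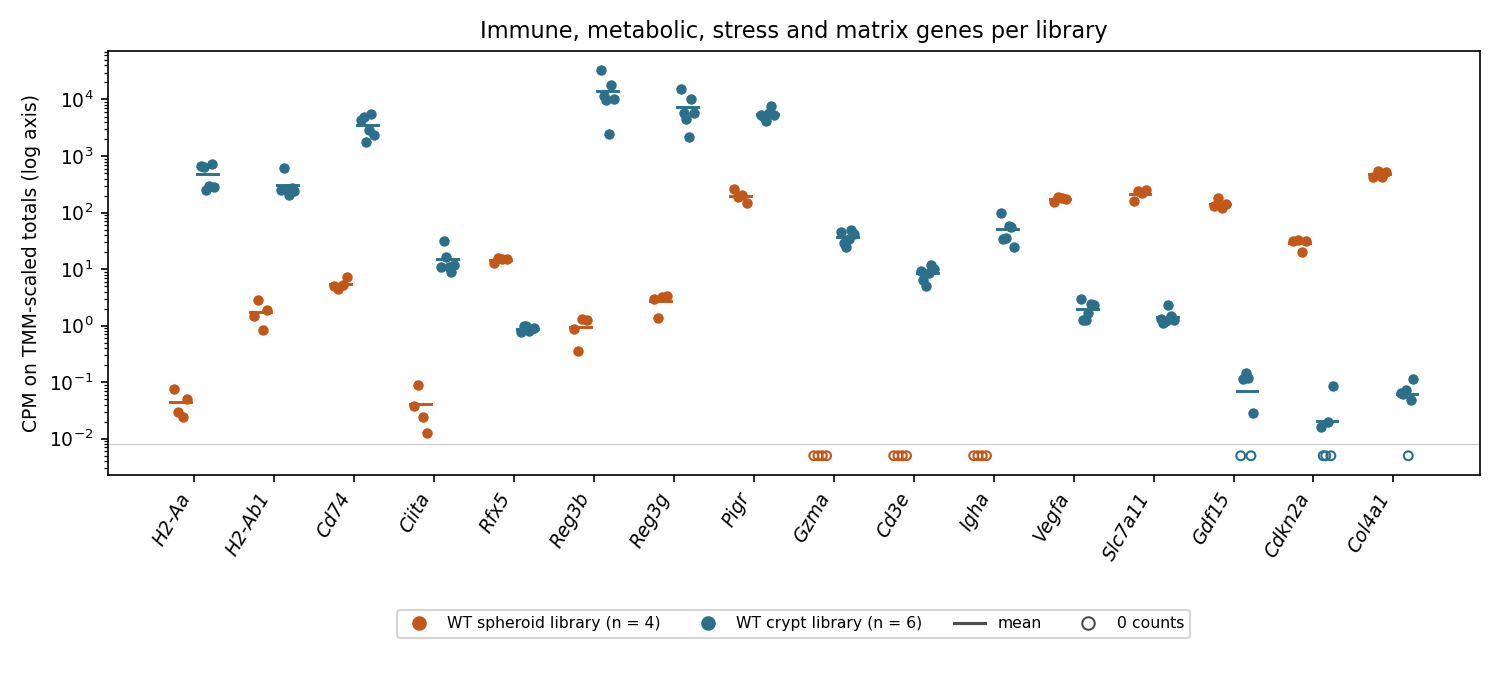
CPM on TMM-scaled totals (log axis) of antigen presentation, defence, lymphocyte, metabolic, stress and matrix genes, 1 point per library, spheroids left and crypts right in each pair; bars are group means and open circles libraries with 0 counts. H2-Aa, Cd74, Ciita and Reg3b stand apart with crypts higher, Gzma, Cd3e and Igha have no count in spheroids, and Slc7a11, Gdf15, Cdkn2a and Col4a1 stand apart with spheroids higher.

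Regulators of intestinal fate were measured in both groups, and most ileal genes were lower in spheroids. Cdx2, the master regulator of intestinal fate, was at 313, 259, 274 and 249 CPM against 26.9 to 41.3 CPM (median 31.7), 8.34-fold higher (3.06 ± 0.13, adjusted p = 1.45e-10; 1.32 after the trend correction). Hnf4a, a driver of enterocyte genes, was at 595 to 796 CPM against 394 to 666 CPM with overlapping groups and did not pass (0.25 ± 0.15, adjusted p = 0.126). Its relative Hnf4g was at 30.8, 17.8, 30.7 and 25.3 CPM against 358 to 697 CPM (median 503), 20.0-fold lower (-4.32 ± 0.23), and Maf, a regulator of mature enterocytes, 17.2-fold lower. Across 21 identity factors 10 were higher and 8 lower (7 and 10 after the correction). Gata4, a factor of the proximal small intestine, was at 91.4, 75.8, 104 and 85.4 CPM against 24.6 to 36.9 CPM (1.52 ± 0.13), a difference that turned to -0.43 after the correction (peak G+C 77%). Across 11 proximal genes tested 5 were higher and 5 lower (4 and 6 after the correction). Pdx1, the duodenal factor, was at 0.984 to 1.63 CPM against 0 to 0.293 CPM. Of 14 ileal genes tested 10 were lower and 1 higher (11 and 0 after the correction), among them Fabp6, the ileal bile acid binding protein, at 0.101 to 0.264 CPM against a wide 23.1 to 521 CPM. Fgf15, the ileal hormone that bile acids induce, was at 8.71, 5.46, 7.88 and 6.43 CPM against 0.13 to 13.1 CPM, with overlapping groups (adjusted p = 0.418). Among carbonic anhydrases, Car4, found on the brush border of the small and large gut, had no count in spheroids and 249 to 780 CPM in crypts, at least 40588-fold lower. Car1, known from the colon, was at 24.6, 3.91, 7.43 and 4.08 CPM in spheroids and had no count in crypts, at least 1238-fold higher.

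Glycolysis and hypoxia genes were mostly higher in spheroids, and genes of fatty acid oxidation and respiration mostly lower. Of 31 glycolysis and hypoxia genes tested, 24 were higher and 4 lower (median 2.29; 22 and 5 after the correction, median 1.59). Vegfa, a growth factor for vessels that hypoxia induces, was at 153, 185, 184 and 174 CPM against 1.25 to 2.99 CPM (median 2.01), 87.3-fold higher (6.45 ± 0.24). Egln3, an oxygen sensor that is itself hypoxia-induced, was 168-fold and the glucose transporter Slc2a1 11.6-fold higher. Ldha, which makes lactate, was lower instead, at 2097, 1978, 1672 and 1657 CPM against 3226 to 5506 CPM (-1.13 ± 0.17, adjusted p = 3.47e-05; -0.29 and not called after the correction), as was Pfkfb4, a regulator of glycolytic flux, 21.8-fold. The hypoxia response core ACGTG lay in 23 of 42 promoters of 30 members (54.8%) and in 19.6% of all promoters. Fatty acid oxidation went down: 20 of 24 genes tested were lower and 2 higher, with the same counts after the correction (median -2.43, then -2.08). Cpt1a, the gate of fatty acid entry into mitochondria, was at 78.8, 57.9, 65.4 and 60.4 CPM against 158 to 253 CPM (median 223), 3.32-fold lower (-1.73 ± 0.15, adjusted p = 9.7e-08). Ppargc1a, the coactivator of mitochondrial genes, was 8.13-fold lower. Of 27 nuclear genes of oxidative phosphorylation 23 were lower and 3 higher (22 and 3 after the correction). Atp5a1, a subunit of ATP synthase, was at 1147, 1029, 1100 and 1103 CPM against 2618 to 3362 CPM, and Cox5a, a subunit of cytochrome c oxidase, was 9.88-fold higher in spheroids (139 to 176 against 12.1 to 22.9 CPM). Mitochondrially encoded messages were lower in 12 of 13 genes tested, but only in 5, with 4 higher, after the correction; their median peak G+C was 44%. mt-Cytb fell 10.0-fold on the means (-3.32 ± 0.31; -1.77 after the correction) and mt-Co1 2.29-fold (-1.20 ± 0.26; 0.38 after it).

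Lipid synthesis genes were higher for fatty acids and not for sterols. Of 14 fatty acid synthesis genes 10 were higher and 4 lower (median 1.63; 8 and 5 after the correction). Scd1, the desaturase that makes oleate, was at 280, 171, 143 and 109 CPM against 1.6 to 9.5 CPM (median 5.89), 29.3-fold higher, and Fasn, fatty acid synthase, 8.01-fold higher (3.00 ± 0.30, but 0.81 after the correction, peak G+C 83%). Of 25 cholesterol genes 6 were higher and 12 lower (median -0.20, and 0.28 on library totals alone). Hmgcs1, an early enzyme of the pathway, was at 233, 214, 167 and 158 CPM against 337 to 543 CPM (median 371), 2.06-fold lower (-1.04 ± 0.17, adjusted p = 5.3e-05; -0.26 and not called after the correction). The letters TCACNCCAC of the sterol element lay in 1 of 20 promoters of the 17 cholesterol genes with an entry (5%) and in 1.24% of all promoters.

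Stress programs were higher in culture. Of 21 integrated stress response and amino acid genes tested, 20 were higher and none lower (median 3.15; the same counts after the correction, median 2.73). Atf4, the factor at its centre, was at 512, 479, 588 and 603 CPM against 103 to 132 CPM (median 120), 4.59-fold higher (2.20 ± 0.11; 0.36 after the correction). Its target Slc7a11, the cystine transporter, was at 159, 238, 219 and 253 CPM against 1.11 to 2.29 CPM, 152-fold higher, and Trib3, a pseudokinase that ATF4 induces, 31.0-fold higher. In contrast the unfolded protein response of the endoplasmic reticulum had 11 of 18 genes higher and 4 lower before and 5 higher and 8 lower after the correction. Genes of the NRF2 oxidative stress response split, with 7 of 17 higher and 7 lower (7 and 8 after the correction). p53 targets and cell cycle inhibitors were higher in 18 of 20 (median 3.07; 15 and 2 lower after the correction, median 1.91). Gdf15, a stress cytokine, was at 133, 183, 119 and 142 CPM against 0 to 0.147 CPM. Phlda3, a p53-induced inhibitor of AKT, was at 120, 139, 125 and 148 CPM against 0.0326 to 0.122 CPM. Cdkn2a, the locus of p16 and ARF that is induced in cultured cells, was at 31.2, 33.3, 19.9 and 31.1 CPM against 0 to 0.0867 CPM. Cdkn1a, or p21, differed less, 2.84-fold (384, 443, 369 and 421 CPM against 79.4 to 194 CPM), as did Mdm2, the p53 inhibitor, 8.68-fold. Fas, the death receptor and a p53 target, was 1 of 2 lower, at 2.56 to 3.76 CPM against 26.3 to 56.5 CPM.

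Of 26 immediate-early and heat shock genes tested, 19 were higher and 4 lower, with the same counts after the correction. Junb, an AP-1 subunit, was at 234, 271, 245 and 273 CPM against 0.622 to 1.73 CPM, and the heat shock gene Hspa1b at 48.4 to 67.7 CPM against 0.0201 to 0.33 CPM. Fos, another AP-1 subunit, was lower in spheroids at 50, 56, 53.5 and 61.3 CPM against 61.9 to 150 CPM (median 112; -0.96 ± 0.23, adjusted p = 0.00169).

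Genes of the basement membrane and of its contact with the cell were higher in 20 of 21 tested, none lower (median 2.67; 17 and 2 after the correction, median 1.83). Col4a1 and Col4a2, the paired chains of type IV collagen, were at 428 to 554 and 400 to 535 CPM in spheroids and at 0.116 and 0.167 CPM or less in crypts, 7909-fold and 5897-fold higher. Itga6, an integrin chain that binds laminin, was 3.03-fold higher, but its peak G+C is 81% and its difference of 1.6 became -0.52 after the correction. Of 25 actomyosin genes 19 were higher and 1 lower (16 and 5 after the correction). Flna, filamin A, was at 361, 504, 487 and 619 CPM against 2.15 to 5.98 CPM, 141-fold higher, and Myh9, non-muscle myosin, 11.9-fold higher. Tpm1, tropomyosin, was 3.68-fold higher at 426 to 517 CPM against 96 to 151, and -0.05 on the log2 scale after the correction. The 1 actomyosin gene that was lower was Actb, beta-actin, at 3805, 4033, 3657 and 4110 CPM against 12159 to 24948 CPM (median 17821), 4.64-fold lower (-2.21 ± 0.19).

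Proliferation genes gave no single direction. Of 30 genes of the G1/S transition and DNA replication 6 were higher and 15 lower (9 and 10 after the correction), and of 25 mitosis genes 10 were higher and 9 lower (11 and 4). Mki67, the Ki-67 antigen, was at 261, 231, 305 and 229 CPM against 74.4 to 118 CPM (1.49 ± 0.15, but -0.35 after the correction), while Top2a, the topoisomerase of dividing cells, was at 250 to 289 CPM against 269 to 504 with overlapping groups (-0.61 ± 0.17, but 0.66 after it). Pcna, the replication clamp, was at 118 to 135 CPM inside 87.6 to 144 CPM and did not pass (adjusted p = 0.72). It was called higher after the correction (0.365) and lower with upper quartile scaling (-0.312). Cdc20, an activator of mitotic exit, was 6.54-fold higher. The direction for G1/S genes also turned with scaling: their median was -0.41, and 0.05 on library totals alone. For mitosis genes the medians were -0.07 and 0.39. Of 21 centrosome and centriole genes 10 were higher and 5 lower (12 and 5 after the correction); without spheroid library 1 or 2 only 3 were lower.

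Pan-epithelial genes were present at high levels in both: Epcam, an adhesion molecule, at 992, 804, 828 and 841 CPM against 369 to 557 CPM and Cdh1, E-cadherin, at 836 to 980 CPM against 498 to 1037 CPM (adjusted p = 0.469). Krt8, the keratin of simple epithelia, overlapped at 3446 to 4144 against 1733 to 3867 CPM. The list had 10 of 15 higher and 3 lower, and 5 and 5 after the correction, under which Epcam turned from 1.01 to -1.16 and Krt8 from 0.60 to -0.17. The list's summed level was nonetheless lower in spheroids, at 10718 to 12174 CPM against 16519 to 23245 CPM in crypts.

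Most genes of xenobiotic metabolism were lower in spheroids. Of 32 xenobiotic metabolism genes 23 were lower and 5 higher (median -3.48; 20 and 6 after the correction, median -2.34). Cyp3a11, the main drug-oxidising enzyme, was at 1.16, 0.0597, 0.144 and 0.203 CPM against 198 to 1236 CPM (median 709), 1800-fold lower, and Cyp2b10, induced through the receptor CAR, 87.9-fold lower. Cyp1b1, which the aryl hydrocarbon receptor induces, was higher, at 23.3 to 32.4 CPM against 0 to 0.0867. Retinoid genes split, 8 of 14 higher and 5 lower (median 2.43; 7 and 5 after the correction, median 0.75): Stra6, the cell surface receptor for the retinol carrier, was at 56.1, 106, 81 and 144 CPM and had no count in crypts, at least 11984-fold higher, and Rdh7, a retinol dehydrogenase, was at 0.0253 to 0.338 CPM against 51.2 to 215. Of 19 clock genes 12 were higher and 4 lower (median 1.21; 12 and 6 after the correction, median 0.95). Arntl (BMAL1), the activator of the clock, was at 14.6, 13.2, 15.3 and 13.3 CPM against 6.27 to 13.6 CPM and did not pass (adjusted p = 0.141), Per2, a repressor, was 3.33-fold higher and Nr1d1, or REV-ERB alpha, 2.81-fold lower. The hours at which libraries were collected are not given in the sources used here. The clock's E box CACGTG lay in 6 of 21 promoters of 16 clock genes (28.6%; 7.15% of all) and the D box TTATGNAA in 2 (9.52%; 3.38% of all).

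By size alone, among abundant genes with non-overlapping groups, the largest rises included, after Ccn2 and Stra6, Col4a1, Col4a2 and the transcript CAAA01147332.1 (83.9 to 124 CPM against 0.0733 CPM or less). Krt4, a keratin of stratified epithelia, was at 528, 508, 486 and 467 CPM against 0.0814 to 0.321 CPM, 3051-fold higher, and the secreted hormone Stc2, an ATF4 target, 2691-fold higher. Also in this set were Serpinb9b, an intracellular protease inhibitor (2282-fold), and Atg9b, an autophagy protein (1846-fold). The largest falls were Car4, 7 alpha-defensins, AY761184, Mptx2, Enpp7 and Reg3b. AY761184, a defensin-like gene, was at 0.0253 to 0.268 CPM against 3336 to 8764 CPM, Mptx2, a pentraxin of Paneth cells, at 0.119 CPM or less against 1114 to 2708 CPM, and Enpp7, the alkaline sphingomyelinase of the brush border, was counted in 1 spheroid library (0.15 CPM) and at 313 to 803 CPM in crypts.

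**Figure D4:**
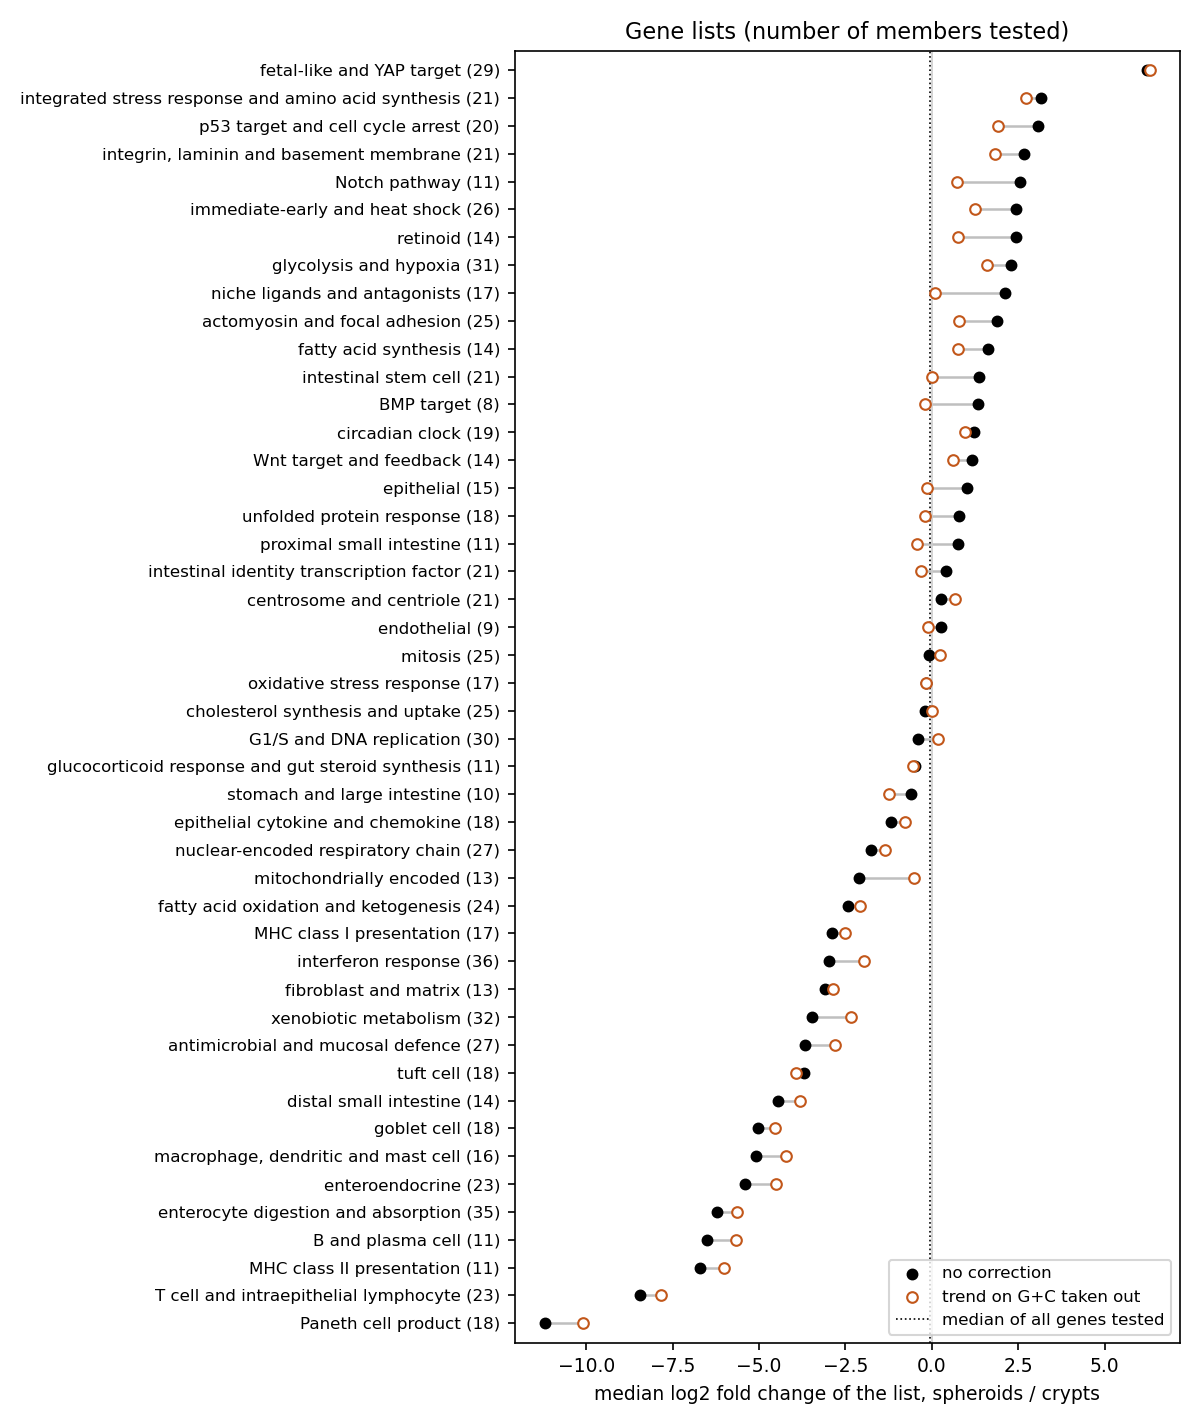
Median log2 fold change (spheroids over crypts) of each gene list with at least 8 members tested, with the number tested in brackets. Filled points are the values with no correction and open points those with the trend on G+C taken out; the dotted line is the median of all genes tested. Paneth genes stand lowest at -11.25 and fetal-like genes highest at 6.24, and stem cell, niche, BMP and unfolded protein lists move to near 0 with the correction.

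The KO libraries of the same tables, which the WT comparison did not use, were tested in the same way. Of 17218 genes tested there 13417 were called (77.9%). Of 14062 WT calls that could be tested in KO, 12161 were called in the same direction and 42 in the opposite one. The KO and WT groups of a table share tissue handling, so this does not separate culture from preparation. The difference between the WT and the KO comparison passed the test for 520 of 17379 genes (2.99%) and for 9 of 140 genes considered for description here. Ly6a was at 830 to 867 CPM in KO spheroids and spread from 2.54 to 1521 CPM (median 486) over the 6 KO crypt libraries, against 2.02 to 5.15 CPM in WT crypts. Its culture difference was 0.40 in KO and 7.54 in WT (adjusted p of the difference between them = 0.0382). Anxa1 spread over KO crypts from 0.749 to 715 CPM (median 205) and Clu from 7.44 to 509 CPM (median 117). Their WT and KO differences did not pass the test of the difference (adjusted p = 0.088 and 0.0625). Areg was at 5.83 to 114 CPM in KO crypts (adjusted p of the difference = 0.0252). Slc2a1 was at 34.7 to 331 CPM there (0.0453), and Gdf15 at 0.373 to 2.23 CPM (0.0207). In contrast Msln stayed at 0.373 to 11.2 CPM and Ankrd1 at 0 to 0.0458 CPM in KO crypts. Fgfr1op itself, the gene removed in the KO groups, was at 19.2, 19.1, 20.4 and 17.9 CPM in WT spheroids and 27.7 to 43.4 CPM in WT crypts (-0.92 ± 0.15, adjusted p = 5.12e-05), and at 12.3 to 16.5 CPM in KO spheroids and 13.7 to 30.6 CPM in KO crypts.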

How the data were processed

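RNA was measured by sequencing. The authors deposited whole-number counts of reads per gene, 1 table for spheroids and 1 for crypts; the build was mm10 and the tools included STAR and DESeq2, per the submitters' processing notes. Strand, read sharing between copies and library kits are not given in the sources used here. Each table held 40757 entries, of which 276 repeats were removed, and 0 per-sample columns were left unused. From there on, edgeR 4.0.16 in R 4.3.3 was used: filterByExpr, TMM, a robust quasi-likelihood fit of the 10 WT libraries and Benjamini-Hochberg adjustment over all genes tested. Standard errors are those implied by the F statistic. Folds are ratios of mean CPM, and a group with 0 counts was set to 3 counts over the group; such bounds cover counting error only. KO libraries were fitted alike, and the WT minus KO difference in 1 fit of 20 libraries. Depth was 44152608 to 103352863 counts. Libraries of a group differed beyond counting noise (chi-square per degree of freedom 26.7 to 483).

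The members and the 52 gene lists (1014 of 1019 entries found) were chosen with earlier results of these data known. Genes named are the 12 largest changes each way at a mean log2 CPM of at least 5, the defining members of each list, the 3 members of smallest p and members against their list's direction; the text gives a selection of these, and some members are not reported here. The test was checked on simulated counts in which few genes changed, up and down alike. In the real data most genes differed, so that check does not cover the scaling used here. Alternatives were other scalings (limma 3.58.1 voom and DESeq2 1.42.0 among them), filters, single libraries left out and, chosen after seeing the data, offsets for base composition, a lowess fit of the log2 fold change with a span of 0.3.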

Additional observations from a re-analysis of the deposited data

Results flagged for a closer look

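In groups of 4 spheroid or 6 crypt libraries, 43 of 384 groups looked at had 1 library far from the others for its group's range; chance gives about 1 in 20 groups, so no single one is read further. Spheroid library WT 1 was high for stomach and large intestine genes (summed 65.6 CPM, others 36.5 to 41), fatty acid oxidation genes (1067 CPM) and MHC class II genes (149 CPM, others 130 to 132), and its Xist set its sex-linked sum (347 CPM, others 101 to 118) apart. It was also high for Apoa1 (39.3 CPM), Anpep (9.62), Car1 (24.6), Pfkfb4 (7.64), Cyp3a11 (1.16) and Enpp7 (0.15). Spheroid WT 2 was high for endothelial genes (22.1 CPM), unfolded protein response genes (2961 CPM), Serpinb9b (138), Defa21 (0.239) and Rgs13 (0.0298). Spheroid WT 3 was low for Igtp (0.637 CPM) and Cdkn2a (19.9), and WT 4 for enteroendocrine genes (12.8 CPM, others 19.1 to 20.2) and Hopx (49.5).

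Crypt library WT 4 was high for Itln1 (17547 CPM), Ang4 (1664), Dcn (34.3), Anxa1 (6.94), Clu (11.8), Msln (13.5) and Slc7a11 (2.29) and low for p53 target genes (343 CPM, others 467 to 501). Crypt WT 2 was high for H2-Ab1 (609 CPM), Ciita (31.7), H2-D1 (696), Iigp1 (8.07) and Nos2 (575), 5 genes of defence and antigen presentation. Crypt WT 3 was high for fetal-like genes (7610 CPM), of which Krt19 made up 7391, and for Jag2 (0.422) and Hspa1b (0.33), and low for Arntl (6.27). Crypt WT 1 was high for Areg (3.32 CPM), Pdx1 (0.293) and Cox5a (22.9), WT 5 for Tlr4 (0.513), and WT 6, the library without Xist, for sex-linked genes (215 CPM) and Cdkn2a (0.0867).

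The WT spheroid-crypt difference exceeded that of the KO libraries by a tested amount on the log2 scale of 6.999 in Ly6a, 6.14 in Atg9b, 4.83 in Areg, 3.85 in Gdf15, 3.56 in Phlda3, 2.88 in Ereg, 2.70 in Slc2a1 and 0.879 in Hopx. For Acadm, a dehydrogenase of fatty acid oxidation that was lower in spheroids in both, the value was -0.944.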

How the results depend on the processing

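The counts of genes called, higher and lower, and those of more than 2-fold changes, stayed within 1.5 times under the 22 alternatives run and, for the large changes, under a plain minimum of 2-fold. Genes higher and lower numbered 8412 and 5918 on library totals alone and 6334 and 8404 with upper quartile scaling; these scalings moved the median log2 fold change of all genes by 0.474 and -0.359. Leaving out 1 library gave 7035 to 7164 higher and 7137 to 7386 lower genes. With the offset for peak G+C there were 6713 and 6922, with one for whole-transcript G+C 6833 and 7485; both were chosen after seeing the data. Among the 140 genes considered for description, those below changed sign and were called in the main test or in the alternative. Changes of sign with no call in either are left out. Values are log2 fold changes, and the cause was not tested. Outside this set, Insm1 (-1.9) and Fev (-1.81), named above, also turned and were called lower with the peak G+C offset. With the peak G+C offset: Creb3l1 -1.27, Epcam -1.16, Gata4 -0.433, Itga6 -0.52, Krt8 -0.169, Mgam 0.472, Mki67 -0.35, Plcg2 -0.699, Sox9 -0.00573, Top2a 0.665, Tpm1 -0.0465 and mt-Co1 0.383. With the transcript offset: Col1a1 -1.63, Creb3l1 -1.48 and Krt8 -0.626. In KO libraries: Creb3l1 -0.161 and Krt8 -0.29. On library totals: Mgam 0.0191; with upper quartile scaling: Pcna -0.312. No paired analysis was possible because the crypt columns carry no number of the labels and the labels tie no spheroid library to a crypt library.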

Other observations

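Within the trend on peak G+C single genes ran with it and against it. Jag2 (peak G+C 88%, 10.06), Junb (71.5%, 7.88) and Cox5a (68%, 3.30) were among the genes higher in spheroids on the log2 scale. Anxa1 (50.5%, 6.78), Ly6a (54.5%, 7.54) and Slc7a11 (58.5%, 7.26) were also higher with a peak G+C below the 64.5% that is the median of all genes. Maf (88%, -4.11), Atp5a1 (78.5%, -1.45) and H2-Ab1 (69%, -7.44) were lower with a peak G+C above it.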
